A study of Danio rerio with 2 samples.

Results

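Transcripts of gata4, gata5, gata6, nkx2.5 and hand2, regulators of the heart and gut field, were followed in sorted zebrafish (Danio rerio) embryo cells. They were chosen by name, and all 5 genes have a row among the 14428 rows of the expression table. Gata4, gata5 and gata6 encode zinc-finger proteins that bind GATA sequences, nkx2.5 encodes a homeodomain protein of the NK2 class, and hand2 encodes a basic helix-loop-helix protein. The cells came from embryos carrying crestin_1kb:EGFP, a transgene in which a 1kb fragment of crestin, a neural crest gene, drives the green fluorescent protein EGFP. Embryos at 15 SS were dissociated and sorted, and about 5500 cells with EGFP and about 100000 cells without it each gave 1 library, with the transgene present in both fractions. The EGFP-negative fraction is a mixture of all tissues that did not pass the sorting gate. The comparison asks how far RNA of the cardiac and endodermal factors was present in the cells marked by the crestin fragment.

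In the vertebrate embryo these factors act together in the lateral plate mesoderm that forms the heart. Gata5 is needed in zebrafish for both heart and endoderm formation, gata4 and gata6 act with it in heart, liver and gut, and nkx2.5 shares its cardiac role with nkx2.7. Hand2 is needed for the growth of the heart muscle field, and it is used again later in the pharyngeal arches and in sympathetic neurons, which derive from the neural crest. Nodal and bone morphogenetic protein (BMP) signals induce the factors, and genes of the heart sarcomere are among their targets.

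The 4 factors with a value above 0 were each lower in EGFP-positive cells, by 2-fold or more, a difference that 26.5% of all compared genes also had in that direction. Gata6 had no value above 0. Gata4 was listed at 0 FPKM in EGFP-positive cells, against 45.1 FPKM in EGFP-negative cells, where FPKM is a level scaled by gene length and by the mapped fragments of the library. Nkx2.5 was likewise listed at 0 FPKM in EGFP-positive cells, against 37.3 FPKM in EGFP-negative cells. Gata5 stood at 6.54 FPKM in EGFP-positive and 41.2 FPKM in EGFP-negative cells. Hand2 stood at 2.55 FPKM in EGFP-positive and 17.5 FPKM in EGFP-negative cells. The fifth gene, gata6, was listed at 0 FPKM in both libraries. Gata5 and hand2 thus had a measurable level in the EGFP-positive fraction, while gata4 and nkx2.5 had none recorded there. The 5 values summed to 9.08 FPKM in EGFP-positive and 141 FPKM in EGFP-negative cells.

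**Figure D1:**
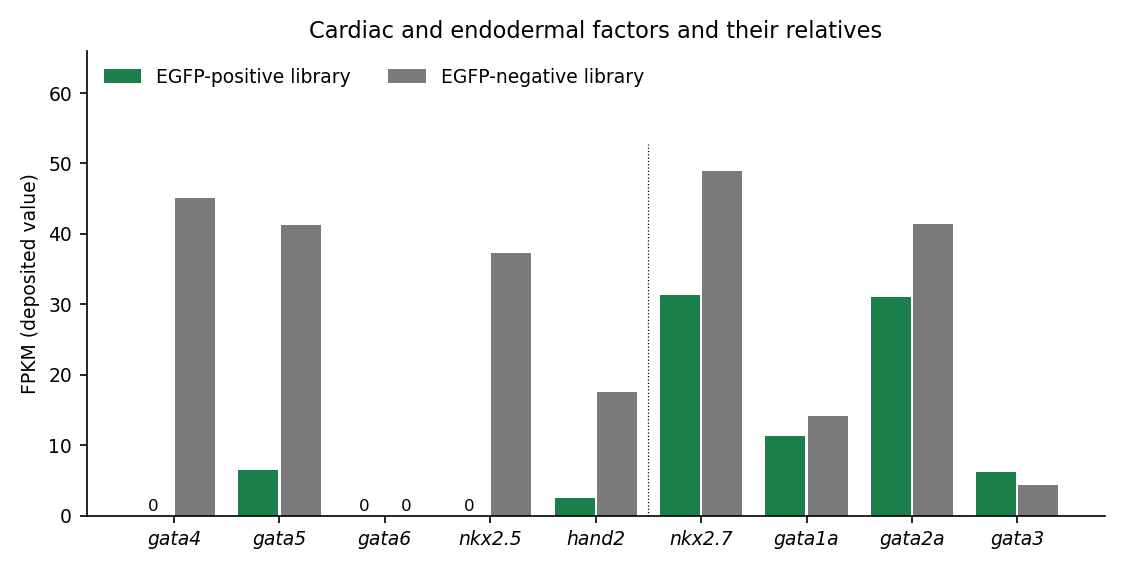
Deposited FPKM (linear axis) of the 5 factors, left of the dotted line, and of 4 related genes, right of it, with the EGFP-positive library as the left bar of each pair and the EGFP-negative library as the right bar. Each bar is 1 library, so there are no error bars, and a 0 marks a value listed at 0. Gata4 and nkx2.5 have a bar in the EGFP-negative library only, while nkx2.7 (31.3 against 48.9 FPKM) and gata2a (31.1 against 41.5 FPKM) have bars of similar height in both.

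With 1 library in each group there was no replicate and no test, and the differences are described by their size. The log2 ratio was log2(FPKM + 1) in EGFP-positive minus log2(FPKM + 1) in EGFP-negative cells, which understates the change of genes with low values. A gene of at least 1 FPKM in either library was called lower or higher at a difference of at least 2-fold on that scale. The log2 ratio was -2.49 for gata5 and -2.38 for hand2, and on the plain FPKM scale the EGFP-positive level was 15.9% of the EGFP-negative level for gata5 and 14.6% for hand2. The log2 ratio was -5.53 for gata4 and -5.26 for nkx2.5, values that depend on the pseudocount because the EGFP-positive value was 0, so no fold is given for them. All 4 genes passed the 2-fold limit downwards, none passed it upwards, and gata6 did not reach 1 FPKM in either library. Across the 9685 genes that reached 1 FPKM, 26.5% were at least 2-fold lower and 22.9% at least 2-fold higher in EGFP-positive cells. Gata4 and nkx2.5 entered that comparison through the EGFP-negative library alone and so had to be called lower, whereas gata5 and hand2 were above 1 FPKM in both. Any compared gene listed at 0 in 1 library, also on the lists below, could likewise be called in 1 direction only. Fewer cells of a type and less RNA in each cell cannot be told apart in such bulk libraries.

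Gata5 stood above hand2 in both libraries. In EGFP-positive cells gata5 was the highest, at the 21.3rd percentile of the genes listed above 0, and hand2 followed at the 7.69th percentile. In EGFP-negative cells gata4 was the highest, at the 69.9th percentile of genes above 0, followed by gata5 at the 68.0th, nkx2.5 at the 65.7th and hand2 at the 46.6th percentile. The 3 upper levels lay close together in EGFP-negative cells, with gata4 at 1.09 times gata5 and 1.21 times nkx2.5, and without replicates their order is not secured. Gata4 was 2.58 times hand2 there. The level of gata5 was 2.57 times that of hand2 in EGFP-positive cells and 2.36 times in EGFP-negative cells. The former value rests on hand2 at 2.55 FPKM in 1 library of unknown depth, so the likeness of the 2 proportions is not secured either. By log2 ratio, 10.5% of the 9685 genes lay below gata5 and 11.2% below hand2. The shares were 1.48% for gata4 and 1.86% for nkx2.5, but they are not comparable with the former. With a listed 0 in EGFP-positive cells, these ratios follow from the EGFP-negative level and the pseudocount alone.

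A listed 0 was common in both libraries: 13.9% of the 9685 genes were at 0 in EGFP-positive cells only, as gata4 and nkx2.5 were, and 9.22% in EGFP-negative cells only. Of genes at 20 to under 50 FPKM in EGFP-negative cells, the range that holds gata4, gata5 and nkx2.5, 10.6% were listed at 0 in EGFP-positive cells and 29.7% were at least 2-fold lower there. For genes at 20 to under 50 FPKM in EGFP-positive cells, 7.34% were listed at 0 in EGFP-negative cells. Of genes at 10 to under 20 FPKM in EGFP-negative cells, the range of hand2, 16.9% were listed at 0 in EGFP-positive cells and 32.2% were at least 2-fold lower. Among 181 rows whose names begin like those of ribosomal protein, proteasome and translation initiation factor genes, 6 were at 0 in exactly 1 library. Cells use most such genes in general, but the beginnings can also match other genes, and the 6 are not identified here. A 0 may also be a lost estimate, which was not tested. Gata6 shared its 0 in both libraries with 31.4% of all 14428 rows. The number of cells differed along with the fraction, and the 2 cannot be told apart.

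**Figure D2:**
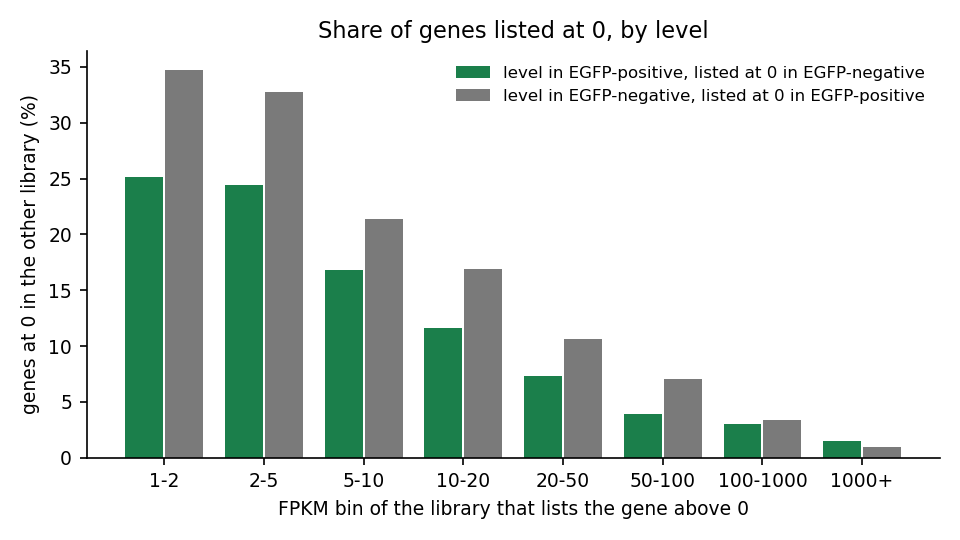
Percentage of genes listed at 0 in one library (vertical axis) by their FPKM in the other (horizontal axis, bins), with genes binned by their EGFP-positive level as left bars and by their EGFP-negative level as right bars. The share at 0 is smaller at higher levels, and in the bin of 20 to under 50 FPKM it is 7.34% for the EGFP-positive level and 10.6% for the EGFP-negative level.

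Gata1a, gata2a, gata3 and trps1 each lay less than 2-fold apart between the libraries. Gata1a, the erythroid factor, stood at 11.3 FPKM in EGFP-positive and 14.2 FPKM in EGFP-negative cells. Gata2a, which acts in blood, vessels and neurons, stood at 31.1 FPKM in EGFP-positive and 41.5 FPKM in EGFP-negative cells, and gata3 at 6.17 FPKM in EGFP-positive and 4.41 FPKM in EGFP-negative cells. Gata2b, like gata6, was listed at 0 in both. The more distant zinc-finger gene trps1 was at 20.8 FPKM in EGFP-positive and 30.7 FPKM in EGFP-negative cells. Of the 6 measured genes on this list, 1 was higher, none lower and 5 lay less than 2-fold apart, with a median log2 ratio of -0.27 beside -0.04 over all 9685 genes. The higher one, si:dkeyp-66g8.1, is the chromatin repressor subunit gene gatad2b and not a relative of gata4 in function (117 FPKM in EGFP-positive and 43.3 FPKM in EGFP-negative cells). Its relative gatad2ab was at 125 FPKM in EGFP-positive and 146 FPKM in EGFP-negative cells.

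Of the NK2 genes besides nkx2.5, nkx2.7 had the highest level in both libraries. Nkx2.7, which overlaps with nkx2.5 in heart formation and is also used in the pharyngeal endoderm, stood at 31.3 FPKM in EGFP-positive and 48.9 FPKM in EGFP-negative cells, a level of 63.9%. Its log2 ratio of -0.63 lay within the 2-fold limit, while nkx2.5, at a similar level in EGFP-negative cells, was listed at 0 in EGFP-positive cells. The difference between these 2 genes was not tested. Of the 6 NK2 genes measured besides nkx2.5, 4 were lower, all of them listed at 0 in EGFP-positive cells, 2 lay between and none was higher. Like nkx2.5, these 4 entered through the EGFP-negative library alone and so had to be called lower. In EGFP-negative cells these 4 were at 20.7 FPKM for zgc:171531 (nkx2.4a in the RefSeq gene table), 4.78 FPKM for nkx2.2b, 4.27 FPKM for nkx2.9 and 1.41 FPKM for nkx2.3. The list median was -1.83, and it was -0.78 over the 2 genes above 0 in both libraries, nkx2.7 and nkx2.1b.

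Relatives of hand2 in the Twist class of helix-loop-helix genes went both ways. Twist1a, a gene of head mesenchyme and neural crest, stood at 387 FPKM in EGFP-positive and 155 FPKM in EGFP-negative cells, and twist3 at 17.0 FPKM in EGFP-positive cells and 0 in EGFP-negative cells. The row par1, an older symbol of the somite factor gene tcf15, was at 3.29 FPKM in EGFP-positive and 28.8 FPKM in EGFP-negative cells, and twist2 was listed at 0 in EGFP-positive cells, against 3.23 FPKM in EGFP-negative cells. The 6 measured genes included 2 higher and 2 lower ones, and their median log2 ratio was -0.09.

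Among the proteins that work with these factors, the T-box genes tbx20 and tbx1 had the lowest log2 ratios, -3.53 and -3.34. Tbx20, a partner of gata and nkx factors in heart muscle, stood at 10.1 FPKM in EGFP-positive and 127 FPKM in EGFP-negative cells. Tbx1, a gene of the pharyngeal mesoderm and endoderm, stood at 25.6 FPKM in EGFP-positive and 268 FPKM in EGFP-negative cells. Their EGFP-positive levels were 7.94% and 9.56% of the EGFP-negative ones, lower shares than those of gata5 and hand2. Tbx5a, the limb and heart field factor, was near the lower limit in both libraries, at 1.02 FPKM in EGFP-positive and 1.51 FPKM in EGFP-negative cells. Of the Fog cofactors, which bind GATA proteins directly, zfpm1 stood at 8.49 FPKM in EGFP-positive and 19.6 FPKM in EGFP-negative cells and zfpm2b at 2.22 FPKM in EGFP-positive and 6.85 FPKM in EGFP-negative cells, both called lower. Zfpm2a was at 2.84 FPKM in EGFP-positive and 0.955 FPKM in EGFP-negative cells, 2.98 times as high on the plain scale. On the FPKM + 1 scale its log2 ratio of 0.975 lay just inside the 2-fold limit. Mef2ca, a muscle and arch factor that acts with hand2 and nkx2.5, was at 16.9 FPKM in EGFP-positive and 21.5 FPKM in EGFP-negative cells. Isl1, a gene of late-added heart progenitors and of neurons, was at 21.9 FPKM in EGFP-positive and 14.2 FPKM in EGFP-negative cells. Of the 20 partner and cofactor genes 8 were lower, 1 higher (smad1, a transducer of BMP signals, at 42.0 FPKM in EGFP-positive and 12.7 FPKM in EGFP-negative cells) and 11 between, with a median log2 ratio of -0.33.

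The list of inducers of cardiac and endodermal fate, which also holds genes that guide heart progenitors, was mixed. Not all of its genes act upstream of the members. Bmp4 was at 31.4 FPKM in EGFP-positive and 34.6 FPKM in EGFP-negative cells, and hdac1, a histone deacetylase gene, at 135 FPKM in EGFP-positive and 134 FPKM in EGFP-negative cells. Aplnrb, a receptor gene that guides heart progenitors, was lower, at 8.71 FPKM in EGFP-positive and 32.6 FPKM in EGFP-negative cells, as was aldh1a2, which makes retinoic acid, at 1.89 FPKM in EGFP-positive and 28.2 FPKM in EGFP-negative cells. The Nodal co-receptor gene oep and the T-box gene eomesa, added after their values were seen, were listed at 0 in EGFP-positive cells, against 26.0 FPKM and 7.25 FPKM in EGFP-negative cells. The 2 higher genes were wnt11, at 107 FPKM, and bon (mixl1), at 24.8 FPKM in EGFP-positive cells, both listed at 0 in EGFP-negative cells. Bon was also named after its value was seen. S1pr2 was at 32.8 FPKM in EGFP-positive and 20.8 FPKM in EGFP-negative cells, and aplnra at 3.21 FPKM and 1.97 FPKM, both inside the 2-fold limit. Of the 17 measured genes 7 were lower, 2 higher and 8 between, with a median log2 ratio of -0.33. Of these, 5 of the lower genes and both higher ones were listed at 0 in 1 library, so their calls could go only 1 way. Over the 10 genes above 0 in both libraries the median was -0.12.

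Heart sarcomere and chamber genes were lower along with the factors. Of 14 measured genes 10 were lower, none was higher and 4 lay between, and the median log2 ratio was -1.97. Myl7, the cardiac regulatory myosin light chain, stood at 156 FPKM in EGFP-positive and 1107 FPKM in EGFP-negative cells, and cmlc1, another cardiac light chain, at 103 FPKM in EGFP-positive and 612 FPKM in EGFP-negative cells. The EGFP-positive level was thus 14.1% of the EGFP-negative level for myl7 and 16.8% for cmlc1, beside 15.9% for gata5 and 14.6% for hand2. Tnni1b, a troponin gene, was at 6.79% and the ventricular myosin gene vmhc at 1.51%, so the genes on this list did not share one proportion. Over the 13 heart genes above 0 in both libraries this share ran from 1.51% to 83.7%, with a median of 23.8%, and the median over all 7449 such genes was 102%. The summed FPKM of the heart list was 764 in EGFP-positive and 3485 in EGFP-negative cells. RNA of genes on the heart list was thus recorded in the EGFP-positive library while gata4 and nkx2.5 were listed at 0 there. Whether other cells in the sort account for it was not tested. Use of the listed genes in muscle outside the heart was not examined either.

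**Figure D3:**
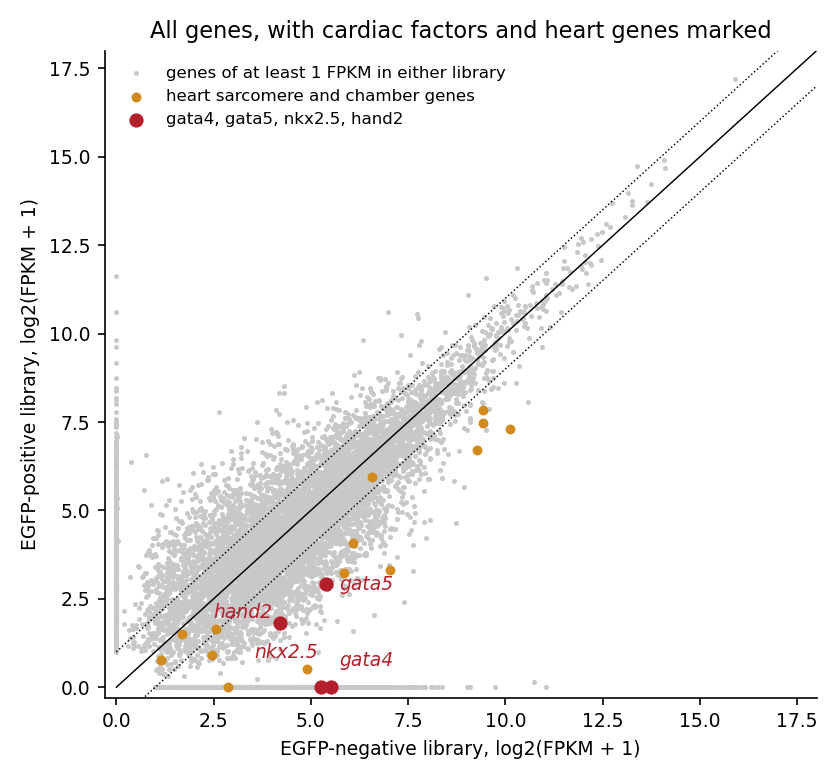
Log2(FPKM + 1) in EGFP-positive cells (vertical axis) against EGFP-negative cells (horizontal axis) for the 9685 genes of at least 1 FPKM in either library, with the 14 heart sarcomere and chamber genes and the 4 detected factors marked. The solid line marks equal values and the dotted lines a 2-fold difference. Gata5 and hand2 lie below the lower dotted line at log2 ratios of -2.49 and -2.38, and gata4 and nkx2.5 lie on the horizontal axis.

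Endoderm genes had no common direction. Sox17, an endoderm marker added after its value was seen, was listed at 0 in EGFP-positive cells, against 4.46 FPKM in EGFP-negative cells, and sox32, the endoderm determinant downstream of gata5, was at 0 in both. Foxa1 was listed at 0 in EGFP-positive cells, against 27.0 FPKM in EGFP-negative cells, while foxa3 stood at 45.0 FPKM in EGFP-positive cells and at 0 in EGFP-negative cells. Prox1a, a liver and lymphatic factor, was at 12.3 FPKM in EGFP-positive and 65.3 FPKM in EGFP-negative cells. Hnf1ba, used in kidney and gut, was at 34.5 FPKM in EGFP-positive and 0.864 FPKM in EGFP-negative cells. Of 19 rows, 8 were at 0 in both libraries, and of the 11 measured genes 3 were higher, 4 lower and 4 between, with a median log2 ratio of -0.61 that was 0.49 over the 7 genes above 0 in both. For the yolk syncytial layer, where gata5 and gata6 are also expressed, 3 genes other than the members were measured. Apoeb was at 302 FPKM in EGFP-positive and 282 FPKM in EGFP-negative cells, apobb at 1.60 FPKM in EGFP-positive and 1.27 FPKM in EGFP-negative cells, and apoa1b at 4.22 FPKM in EGFP-positive and 0.538 FPKM in EGFP-negative cells, giving a list median of 0.19.

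Genes of the lateral plate, where hand2 is expressed, were mostly lower. Fn1, the fibronectin gene whose product hand2 restrains in the zebrafish heart field, stood at 30.8 FPKM in EGFP-positive and 121 FPKM in EGFP-negative cells. Has2, a hyaluronan synthase gene, was at 3.55 FPKM in EGFP-positive and 17.3 FPKM in EGFP-negative cells, and tal1, a blood and vessel factor, at 10.8 FPKM in EGFP-positive and 64.1 FPKM in EGFP-negative cells. Without hand2 itself, 10 of the 19 measured genes were lower and 8 between, with a median log2 ratio of -1.01.

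Genes that act with hand2 in the neural crest derivatives ran the other way in part. Of 13 measured arch and autonomic genes 7 were higher, 4 lower and 2 between, with a median log2 ratio of 1.24. Over all 9685 genes 22.9% were higher and 26.5% lower. Of the arch and autonomic genes, 3 of the lower and 2 of the higher ones were listed at 0 in 1 library, so their calls could go only 1 way. Over the 8 genes above 0 in both libraries the median was 1.44. The endothelin receptor gene ednrab, which lies upstream of hand2 in the arches, stood at 230 FPKM in EGFP-positive and 16.2 FPKM in EGFP-negative cells, while its paralogue ednraa was listed at 0 in EGFP-positive cells, against 70.3 FPKM in EGFP-negative cells. The orphan receptor gene nr2f5 was at 200.1 FPKM in EGFP-positive and 84.0 FPKM in EGFP-negative cells. The ligand gene edn1, named after its value was seen, was listed at 0 in EGFP-positive cells, against 31.9 FPKM in EGFP-negative cells. The autonomic genes th, dbh and phox2bb and the arch genes dlx5a, dlx6a and barx1, all outside the naming rule, were at 0 in both libraries. These were 6 of the 19 rows of the list, beside 31.4% of all 14428 rows at 0 in both.

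**Figure D4:**
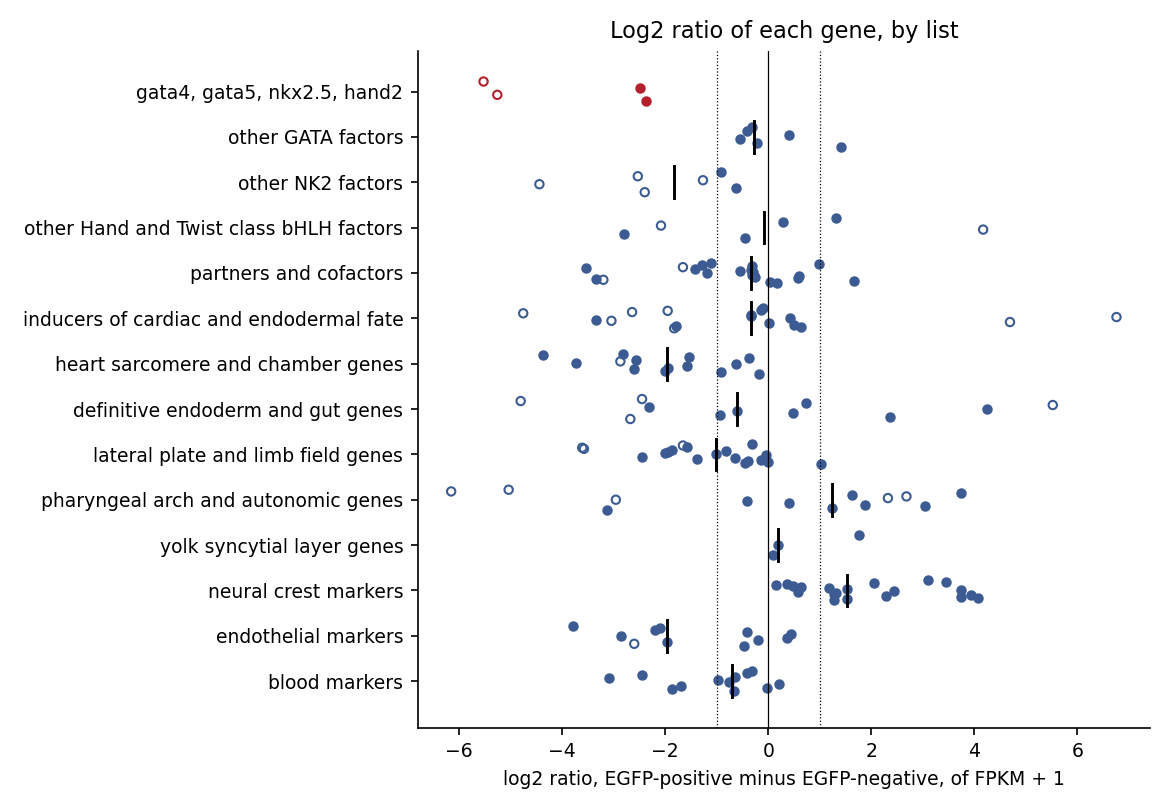
Log2 ratio of FPKM + 1, EGFP-positive minus EGFP-negative (horizontal axis), of each measured gene in the 4 detected factors and 13 lists. Some genes stand on several lists. Open circles are genes listed at 0 in one library, the thick bar is the list median, and dotted lines mark a 2-fold difference. The 4 factors lie between -5.53 and -2.38, while the heart list has a median of -1.97, the other GATA factors -0.27 and the neural crest markers 1.53. The list of other GATA factors also holds si:dkeyp-66g8.1 (gatad2b) and gatad2ab, which are not relatives of gata4 in function.

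Markers of the crest and of neighbouring tissues were also compared. Their lists were chosen with earlier results of these data known, so they cannot serve as an independent check of the sort. For comparison, 22.9% of the 9685 compared genes were called higher in EGFP-positive cells and 26.5% were called lower. Of 20 neural crest genes 15 were at least 2-fold higher in EGFP-positive cells, none was lower and none was at 0 in either library, with a median log2 ratio of 1.53 and a summed FPKM of 3206 in EGFP-positive and 1215 in EGFP-negative cells. Of 11 endothelial genes 6 were lower and 5 between. Their median was -1.96, or -1.21 over the 10 genes above 0 in both libraries. Their summed FPKM was 228 in EGFP-positive and 813 in EGFP-negative cells. Of 12 measured blood genes 4 were lower and 8 between, with a median of -0.71 and a summed FPKM of 2864 in EGFP-positive and 4995 in EGFP-negative cells. RNA of genes on these lists was therefore present in both libraries. Which cells it came from was not tested, nor was the part of such cells in the levels of gata5 and hand2.

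The genes nearest to each factor in level over the 2 libraries were of varied kinds. Likeness was the distance between log2(FPKM + 1) values over both libraries, and with 2 libraries many genes share a pattern. Nearest to gata5 were qtrt1 (6.17 FPKM in EGFP-positive and 41.2 FPKM in EGFP-negative cells, distance 0.07), casp9 (0.09) and micall2a (0.11). Nearest to hand2 were thbs4b (2.65 FPKM in EGFP-positive and 17.6 FPKM in EGFP-negative cells, distance 0.04), cd82b (0.04) and zbtb14 (0.15). Nearest to gata4 were rpp40, fam132a and hoxb4a, and nearest to nkx2.5 were commd7, hoga1 and arpc5lb, all of them listed at 0 in EGFP-positive cells.

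Some genes next to a factor on its chromosome, in the order of protein-coding genes of the RefSeq table (assembly GRCz12tu), had a row of their own. Next to hand2 were hmgb2a, at 2542 FPKM in EGFP-positive and 3190 FPKM in EGFP-negative cells, and fbxo8, at 6.32 FPKM in EGFP-positive and 1.15 FPKM in EGFP-negative cells. Stc2a, next to nkx2.5, was at 47.0 FPKM in EGFP-positive cells and at 0 in EGFP-negative cells, the reverse of nkx2.5. Next to gata5, si:dkeyp-73a2.2 was at 19.8 FPKM in EGFP-positive cells and at 0 in EGFP-negative cells, and cables1, next to gata6, was at 0 in both libraries as gata6 was. In that table the span of hand2 overlaps that of cep44, which was listed at 0 in EGFP-positive cells, against 5.55 FPKM in EGFP-negative cells, and the span of nkx2.5 overlaps those of 2 long noncoding RNA genes. Whether reads were assigned by strand is not given in the sources used here, so hand2 and nkx2.5 are uncertain to that extent.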

How the data were processed

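RNA was measured in 1 EGFP-positive and 1 EGFP-negative library, made from total RNA with ribosomal depletion and a low-input kit, per the labels' protocols. The authors deposited 1 table of FPKM values with 1 column per library, matched here through the sample descriptions. Reads were processed with cutadapt, TopHat2 2.0.11 and Cufflinks 2.2.1 on build Zv9, per the submitters' processing notes; the options, the annotation and any scaling across libraries are not stated there. Depth is unknown: among 668 genes of low level (above 0 but below 6 FPKM in each library, and at least 1 FPKM in either), no bin of 0.02 in log2 ratio held more than 1.50% of them, so no whole-read step was recovered and no counting interval is given.

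Log2 ratios used a pseudocount of 1 FPKM, a minimum of 1 FPKM in either library and a 2-fold limit (Python 3.11.15, pandas 2.3.3, numpy 2.4.6). The code for the calls was run on simulated data with large planted changes, small noise and no values at 0. That run checks the code and not how reliable the calls are in these libraries. The members and 13 lists were chosen with earlier results of these data known. Members were left out of the other lists. Those lists share some genes, among them gata2a, tal1, bmp4, twist1a and ednrab, so their counts and medians are not independent of each other. Of the 202 listed names 183 had a row, 14 of them through an older symbol in the RefSeq gene table. Named genes were the members, all of their relatives and cofactors, and in each other list the 4 highest in FPKM and the 2 highest and 2 lowest in log2 ratio among genes above 0 in both libraries; others are marked where named. No sequences are given. Alternatives were the pseudocount, the filter, genes at 0, library scaling and the fold limit.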

Additional observations from a re-analysis of the deposited data

How the results depend on the processing

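The log2 ratios of gata4, gata5, nkx2.5 and hand2 stayed at least 2-fold lower under every pseudocount, filter and scaling that left them a value. For gata4 and nkx2.5, listed at 0 in EGFP-positive cells, none of these settings could have changed the call. Filters leave the ratio of a gene as it is, so for gata5 and hand2 only the pseudocounts and scalings could differ. The log2 ratios ran from -8.82 to -3.32 for gata4, -8.55 to -3.08 for nkx2.5, -2.75 to -2.00 for gata5 and -2.73 to -1.58 for hand2. The count of 4 lower members became 2, gata5 and hand2, with genes above 0 in both libraries only, and it was 4 at a 4-fold limit. Over all genes, rescaling both libraries to an equal sum of FPKM moved the median log2 ratio by -0.27, and by -0.16 without the most abundant gene. At an equal sum nkx2.7 was at -0.91 instead of -0.63 and stayed inside 2-fold. No paired analysis was possible because each group has 1 library, and for the same reason no replicate could be left out.

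List medians were less stable. With a pseudocount of 5 FPKM they were -0.73 for the other NK2 factors, -0.71 for the lateral plate and 0.85 for the arch and autonomic genes. With no filter they were 0 for the Twist class, endoderm, arch and yolk lists and -0.92 for the lateral plate. At a minimum of 5 FPKM they were 0.28 for the Twist class and 0.82 for the arch list. Over genes above 0 in both libraries they were -0.78 for NK2, 0.49 for endoderm and -0.73 for the lateral plate, and at an equal sum the arch list was at 0.96. With no filter, rows at 0 in both libraries entered at a log2 ratio of 0. These were 8 of 19 endoderm, 6 of 19 arch, 5 of 9 yolk and 2 of 8 Twist class rows. A larger pseudocount draws every log2 ratio towards 0. The other settings changed the library scale or which genes entered a list, and their moves were not tested further. Genes listed at 0 and the unknown depth limit every statement on gata4, gata6 and nkx2.5.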

Other observations

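Of the 17 measured genes on the list of inducers, 2 stood the opposite way to gata4 and nkx2.5. They were above 0 in EGFP-positive cells and listed at 0 in EGFP-negative cells. Wnt11, a ligand of the planar polarity branch of Wnt signalling, was at 107 FPKM in EGFP-positive cells. The row bon, an older symbol of the Nodal-induced homeobox gene mixl1, which acts upstream of endoderm formation, was at 24.8 FPKM there, and was named after its value was seen. On the same list 5 genes were at 0 in EGFP-positive cells only, as gata4 and nkx2.5 were. Of the 11 measured endoderm genes 1 was at 0 in EGFP-negative cells only and 3 in EGFP-positive cells only. Of the 14 measured heart genes none was at 0 in EGFP-negative cells only and 1 in EGFP-positive cells only. Across the 9685 genes compared, 9.22% were listed at 0 in EGFP-negative cells only and 13.9% in EGFP-positive cells only.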
